A study of Coprinopsis cinerea with 7 samples.

Results

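The long repeat blocks described here are stretches of the Coprinopsis cinerea genome that held almost no reads in one deposited count table and many reads in the other. Coprinopsis cinerea is the ink cap mushroom, and the DNA came from its oidia, the asexual spores. The labels describe 7 libraries, namely 5 immunoprecipitations (IP) with a non-commercial anti-CMS antiserum and 2 inputs, all from oidia without any other treatment named. By these labels biological replicate 1 has 3 technical IP libraries and biological replicate 2 has 2, with 1 input for each. Each deposited table gives counts in 300 bp windows for 2 IP columns (1_1 and B_1) and 2 input columns with the same tags. For each window, r was the log2 ratio of the summed input count plus 1, as a share of the table's total, in the primary table over the same quantity in a table named for multiple mapped and unique reads, called the multi-mapped table here. A block was a run of at least 10 consecutive windows with r under -0.5 on chromosomes 1 to 13 whose mean r was -3 or lower. There were 161 such blocks with 4450 windows, out of 120537 windows in all, which is 3.73% of the windows on the 13 chromosomes and 1335 kb. No genome sequence was used, so how alike the copies are was not measured, and "repeat" rests on the difference between the tables.

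The mark assayed is 5-hydroxymethylcytosine (5hmC), which TET/JBP family dioxygenases make by oxidising 5-methylcytosine. Treatment with bisulfite converts it to cytosine-5-methylenesulfonate (CMS), which the antiserum binds. In fungi, DNA methylation is best known from repeats and transposons. Reads from such sequence match several places equally well, so a table that keeps only uniquely placed reads empties there, and a table that shares them out fills by a rule of its own.

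The blocks had a median length of 7200 bp, or 24 windows, and ranged from 3000 to 42300 bp. Of the 161, 113 had 20 or more windows and 27 had 40 or more. Mean r per block had a median of -4.78 and ran from -8.72 to -3.01. Just inside the limit lay the blocks chr7:329401-342300 (-3.01), chr6:1887301-1893000 (-3.04) and chr11:1322401-1329600 (-3.05). Just outside lay the runs chr3:886501-889500 (-2.98), chr11:1144201-1153500 (-2.97) and chr6:338701-342300 (-2.95). The summed primary input was 10 counts or less in 1494 of the 4450 windows and 0 in 378, out of 449 such windows genome-wide. The blocks were thus chosen by the input counts of both tables, so a low primary input can raise the primary IP over input ratio, and a high multi-mapped input can lower the other. The IP columns were not used in the choice. Coordinates are those of the window tables, and their genome build is not given in the sources.

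Blocks were spread unevenly over the chromosomes. Chromosome 6 held 27 blocks that made up 11.4% of its windows, followed by chromosome 10 with 14 blocks and 7.24% and chromosome 12 with 16 blocks and 6.55%. Chromosome 8 had the lowest share, 0.919% in 4 blocks. Of the 161 blocks 8 lay within 20 kb of a chromosome end, 14 within 50 kb and 28 within 100 kb. Block windows within these distances were 4.16%, 6.70% and 15.7% of all block windows, against 1.46%, 3.64% and 7.27% of all chromosome windows. Blocks often lay close to each other, with 63 of 161 within 20 kb of another block and a median distance of 30.9 kb to the nearest.

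Window counts summed to 24990768 (IP 1_1), 19994333 (IP B_1), 28735765 (input 1_1) and 27600179 (input B_1) in the multi-mapped table. The primary sums were 106176723, 67181684, 36059418 and 36233140 in the same order. The median block window held 587.5 and 558 IP counts and 607 and 564 input counts in the multi-mapped table, against 172, 130, 208 and 202 for windows with r of -0.5 or more, the windows outside runs of low r. Its highest count was 1070, 1035, 1071 and 1053 in the 4 columns, and these maxima of the whole table lay in the blocks. In the primary table the median block window held 103 and 70 IP counts and 31 and 27 input counts. Within the blocks, paired columns of the multi-mapped table differed by less than independent reads would, with a chi-square per degree of freedom of 0.576 for the IP columns and 0.550 for the inputs. In the primary table the same measure was 8.40 and 1.90, so the columns were counted as separate samples, and values with the inputs summed as 1 sample are given where they change a count. The labels do not tie the column tags to the biological replicates, nor say whether those were separate cultures. The p-values below thus rest on these columns alone, and those of blocks also depend on the bins fitted beside them.

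Taken as a whole, the blocks held a larger share of the IP counts than of the input counts. In the multi-mapped table they held 10.4% and 12.4% of the IP counts against 9.36% and 9.18% of the input counts. Their mean level was 23.4 CPM (counts scaled to a common library total) per window in IP 1_1, 27.8 in IP B_1, 21.0 in input 1_1 and 20.6 in input B_1. Both IP columns lay above both inputs, and IP B_1 stood apart from IP 1_1 by more than the inputs differed. The means were 25.6 ± 3.12 CPM (SD, n = 2) in IP and 20.8 ± 0.279 CPM (SD, n = 2) in input, 1.22-fold higher in IP. On the log2 scale the difference between the columns was 0.29. Equal raw counts in IP and input would come out as 0.32 with library totals. The exact two-sided permutation test gave p = 0.333, which is the smallest that 2 columns against 2 can give.

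In the multi-mapped table most block windows had scaled fold changes a little above 0, and a minority passed the test. With edgeR's quasi-likelihood test, 743 of 4450 block windows (16.7%) were higher in IP at an adjusted p under 0.05, against 7.00% of all tested windows, and 6 (0.135%) were lower against 0.816%. Only 21 (0.472%) were both called and at least 2-fold higher, near the 0.438% over all windows. The median log2 fold change was 0.37, with 0.30 at the 25th, 0.42 at the 75th, 0.03 at the 5th and 0.62 at the 95th percentile, and 4251 windows (95.5%) lay above 0, while the median of all windows was -0.02. Both IP columns exceeded both inputs in 4072 block windows (91.5%), against 25.2% of all windows. At an unadjusted p under 0.05, 2184 block windows (49.1%) were higher against 13.4% of all tested windows, and 27 (0.607%) were lower against 6.12%. Scaled by library totals and not by TMM (edgeR's trimmed mean of M-values), the block median was 0.28 and that of all windows -0.10, a difference of 0.39 under both scalings. That scaling called 14.8% of block windows higher against 4.90% of all windows, and 0.584% lower against 5.33%. Before scaling, raw IP exceeded raw input in 23.3% of block windows and in 3.03% of windows outside runs of low r (r of -0.5 or more). The authors' deposited table called 1133 of the 4450 windows (25.5%) higher in IP in the multi-mapped table, against 3.21% of all windows there.

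The count of windows called moved with single columns. Leaving out IP 1_1 gave 4070 (91.5%, against 12.7% of all windows) and leaving out IP B_1 gave 2399 (53.9% against 7.92%). Leaving out input 1_1 gave 228 (5.12% against 3.44%), and summing the inputs 239 (5.37% against 4.32%). Without input B_1 the count was 139, and its share of 3.12% was near the 2.80% of all windows. Fits without a column take their spread from the 2 columns of the other group and assume that the lone column varies alike. The DESeq2 Wald test called 2469 of the 4060 block windows it gave an adjusted p (60.8%), against 38.3% of the 17712 windows of the genome with one. The 6 lower windows became 0 when IP 1_1 was left out, 17 when IP B_1 was, 2 or 1 when input 1_1 or B_1 was, 26 with library totals and 0 by DESeq2.

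By edgeR's test, the share of block windows called was highest at 200 to 400 input counts. Among block windows with 200 to 300 input counts 46.5% were called higher, and 45.5% at 300 to 400, against 6.16% and 17.3% of windows outside runs of low r. The share was 27.1% at 400 to 500, 11.98% at 500 to 600, 5.83% at 600 to 700 and 0.687% at 700 to 800, against 17.7%, 6.35%, 1.504% and 0% outside. It was also lower at 100 to 200 counts, 26.5% of 113 block windows against 2.81% outside, and 5 block windows held fewer counts than that. Above 800 input counts edgeR called 0 of 879 windows, with 65 higher at an unadjusted p under 0.05, while DESeq2 called 783, so this order of shares is that of edgeR's test. Over the same classes the median log2 fold change went the other way, from 0.25 at 200 to 300 counts to 0.40 above 900, while its spread narrowed. Windows outside runs of low r had medians of -0.05 and 0.02 in the classes of 200 to 300 and 300 to 400.

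**Figure D1:**
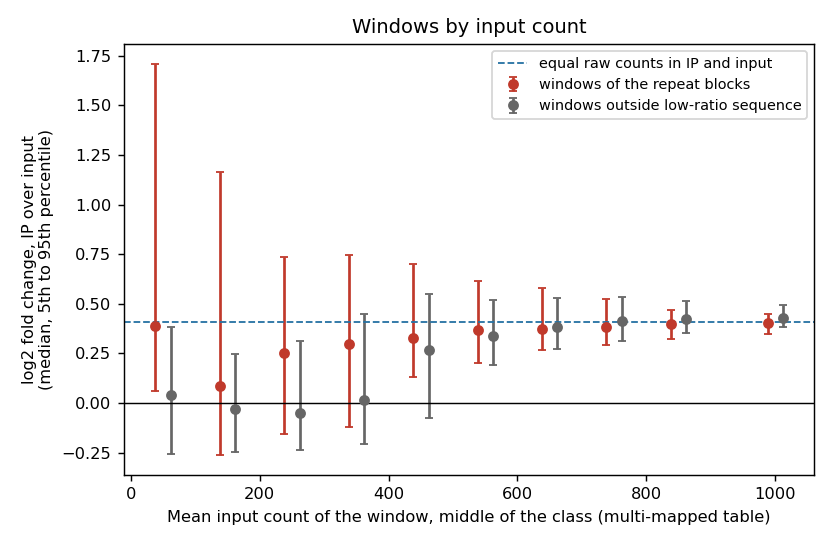
Log2 fold change of IP over input per 300 bp window (y axis) by the window's mean input count in the multi-mapped table (x axis), for block windows in red and windows outside runs of low r in grey. Points are medians and bars span the 5th to 95th percentile. Both kinds of window meet the dashed line of equal raw counts, 0.41, in the deepest classes, while at 200 to 300 counts the block median is 0.25 and the other -0.05.

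In the deepest windows the raw counts of IP and input were nearly equal. Over the 2130 block windows with more than 600 input counts, the ratio of raw IP to raw input had a median of 0.976 and lay between 0.913 and 1.06 from the 5th to the 95th percentile. The IP columns held fewer counts in all than the inputs, a ratio of 0.799 between the summed totals. Equal raw counts therefore come out as a log2 fold change of 0.41 after TMM scaling and 0.32 with library totals. The same holds between the IP columns. Equal raw counts put IP B_1 above IP 1_1 by 0.37 on the log2 scale, block windows had a median of 0.30, and IP B_1 was the higher in 98.9% of block windows against 49.6% of all windows. By primary counts that share was 51.7%. Whether a limit on counts per position in the multi-mapped table sets these values was not tested.

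Against windows outside runs of low r in the same class of input counts, block windows had higher median fold changes below 600 counts and lower ones from 600 to 900. The medians on the log2 scale were 0.25 against -0.05 at 200 to 300 counts, 0.30 against 0.02 at 300 to 400 and 0.33 against 0.27 at 400 to 500. They were 0.37 against 0.38 at 600 to 700, 0.38 against 0.41 at 700 to 800 and 0.40 against 0.42 at 800 to 900. Over all windows of 200 to 400 input counts, the mean block count over the mean count of windows outside runs of low r was 0.46 and 0.73 on the log2 scale for IP, and 0.30 and 0.27 for input. The inputs themselves were thus higher in block windows within this class. Both IP values exceeded both input values, and the difference was 0.30 (exact two-sided permutation p = 0.333, the smallest possible). Of the 1027 block windows of at most 400 input counts, 448 were called higher and 6 lower by edgeR's test. That limit was chosen after seeing the data. Outside runs of low r the share called higher was 3.01% up to 100 counts and 2.81% at 100 to 200. It was 6.16% at 200 to 300 and 17.3% at 300 to 400.

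Taking each block as a single feature gave a similar median with few calls. Summed over its windows, the median block had a log2 fold change of 0.41, 155 of 161 lay above 0, and the range was -0.14 to 0.92. Both IP columns exceeded both inputs in 150 blocks, against 26.2% of all features (blocks and bins of 10 windows over the rest of the genome), and both lay below in 1 block, against 28.9%. In the other 10 blocks the groups overlapped. By edgeR's quasi-likelihood test 15 blocks (9.32%) were higher at an adjusted p under 0.05, less than the 15.1% of all features, and 0 were lower against 2.47%. At an unadjusted p under 0.05, 57 (35.4%) were higher against 17.9% of all features, and 1 (0.621%) was lower against 8.74%. DESeq2 called 25 higher (15.5%), near its 14.2% of all features, and 0 lower against 0.269%. The count, and its side of the share over all features, rested on the setup. It was 91 (56.5% against 20.1%) with the rest of the genome in bins of 30 windows, 30 (18.6% against 11.9%) with library totals, and 2 (1.24% against 7.09%) with the inputs summed. Leaving out IP 1_1 gave 154 (95.7% against 18.0%) and IP B_1 136 (84.5% against 15.3%). Leaving out input 1_1 gave 2 (1.24% against 7.51%) and input B_1 1 (0.621% against 6.32%).

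Block fold changes gathered around the value of equal raw counts, which was 0.43 with the scaling factors of the block fit. In all, 119 of 161 blocks lay within 0.1 of it and 4 lay above it by more than 0.2. Of the 13 blocks with under 300 input counts per window 3 were called higher, and their log2 fold changes ran from -0.14 to 0.67 with a median of 0.02. Among 31 blocks of 300 to 450 counts 6 were higher, with a median of 0.33. The 40 blocks of 450 to 600 counts had 4 higher and the 45 blocks of 600 to 750 had 2, with medians of 0.38 and 0.42. The 32 deepest blocks had 0 called by edgeR, with 8 at an unadjusted p under 0.05 and 6 by DESeq2, and the highest median, 0.46.

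**Figure D2:**
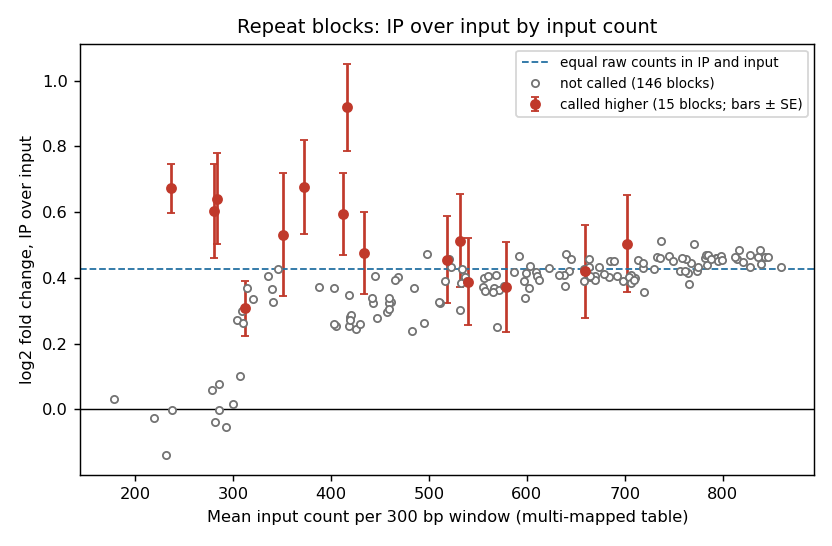
Log2 fold change of IP over input for each of the 161 blocks (y axis) by its mean input count per 300 bp window in the multi-mapped table (x axis), with the 15 blocks called higher in red (bars, ± SE) and the other 146 in open grey. Blocks of under 300 counts spread from -0.14 to 0.67 and those of 300 to 450 from 0.10 to 0.92. Deeper ones lie closer to the dashed line of equal raw counts, 0.43, with a median of 0.46 in the 32 deepest.

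The block with the highest fold change was chr9:761101-764400, of 11 windows. It held 571 and 578.8 IP counts per window against 446.5 and 386.8 input counts in the multi-mapped table. Scaled, these were 23.2 and 30.7 CPM in IP and 15.03 and 13.5 CPM in input. The log2 fold change was 0.92 ± 0.13 (SE; edgeR adjusted p = 2.42e-07), and all 11 windows were called higher, between 0.68 and 1.14. Without input B_1 the adjusted p was 0.0547. The rule chose this block for a low primary input, so its primary counts are a description. They averaged 3692 and 3306 per window in IP against 56.2 and 49.9 in input, with 4 of 8 tested windows called. The gene models CC1G_02421 and CC1G_02422 lay in it, with all 4 and all 6 of their windows called and medians of 0.74 and 0.94. The reference gene table gives locus tags and no product names.

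The other 4 of the 5 highest blocks lay at log2 fold changes of 0.60 to 0.68. The block chr2:2676901-2681700 held 18.0 and 22.8 CPM per window in IP against 12.7 and 12.7 in input, and 13 of its 16 windows were called in the multi-mapped table. Its log2 fold change was 0.68 ± 0.14 (SE; edgeR adjusted p = 0.000249). All 13 windows tested in the primary table were called there, a description only, since the rule chose for low primary input. The block chr6:1454401-1457400 held 11.6 and 14.2 CPM against 8.29 and 7.88, a difference of 0.67 ± 0.07 (SE; edgeR adjusted p = 2.09e-10), with 7 of 10 windows called. Its windows were uneven, from 0.11 to 1.43 on the log2 scale with a median of 0.39. Both blocks hold no gene model by 50% or more of its length, and IP lay above input without overlap in each.

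The remaining pair of high blocks was taken up by large gene models. The block chr10:1483501-1489500, filled by the 5782 bp gene CC1G_11208, held 13.2 and 17.1 CPM per window in IP against 9.77 and 9.64 in input. Its log2 fold change was 0.64 ± 0.14 (SE; edgeR adjusted p = 0.000345), and 14 of its 20 windows were called. The block chr12:606001-612600 held 12.9 and 16.3 CPM in IP against 9.67 and 9.56, a difference of 0.60 ± 0.14 (SE; edgeR adjusted p = 0.00112). Of the windows of its genes, 10 of 13 in CC1G_15404 and 5 of 7 in CC1G_15405 were called. With the inputs summed as 1 sample, the blocks on chromosomes 2, 10 and 12 had adjusted p-values of 0.208, 0.208 and 0.284. They also missed the threshold without either input column, at 0.180 to 0.314.

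The 5 lowest blocks were short, 12 to 20 windows, held 217 to 294 input counts per window, and were not called in either direction by edgeR or DESeq2, with 1 lower at an unadjusted p under 0.05. The block chr4:2183101-2186700 with gene CC1G_12409 held 6.84 and 7.59 CPM per window in IP against 7.93 and 7.93 in input. It was the block where both IP columns lay below both inputs (log2 -0.14 ± 0.06, SE; edgeR adjusted p = 0.113). Library totals called 37.0% of all features lower and 1 block, which was this one (edgeR adjusted p = 0.00189). Without IP B_1 its adjusted p was 0.00525. In the other low blocks the groups overlapped. These were chr2:2623801-2629800 (log2 -0.05; CC1G_11513 and CC1G_11514), chr2:3142201-3148200 (-0.04; CC1G_06153 and CC1G_06154), chr1:706801-710400 (-0.02; CC1G_13588 and CC1G_13589) and chr1:756001-759600 (-0.0016; CC1G_04368). Without IP 1_1 these 4 values turned to 0.06, 0.06, 0.08 and 0.11, and without IP B_1 the first was called lower (-0.16; edgeR adjusted p = 0.0407). Each of the 5 lowest blocks held at least 1 gene model.

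**Figure D3:**
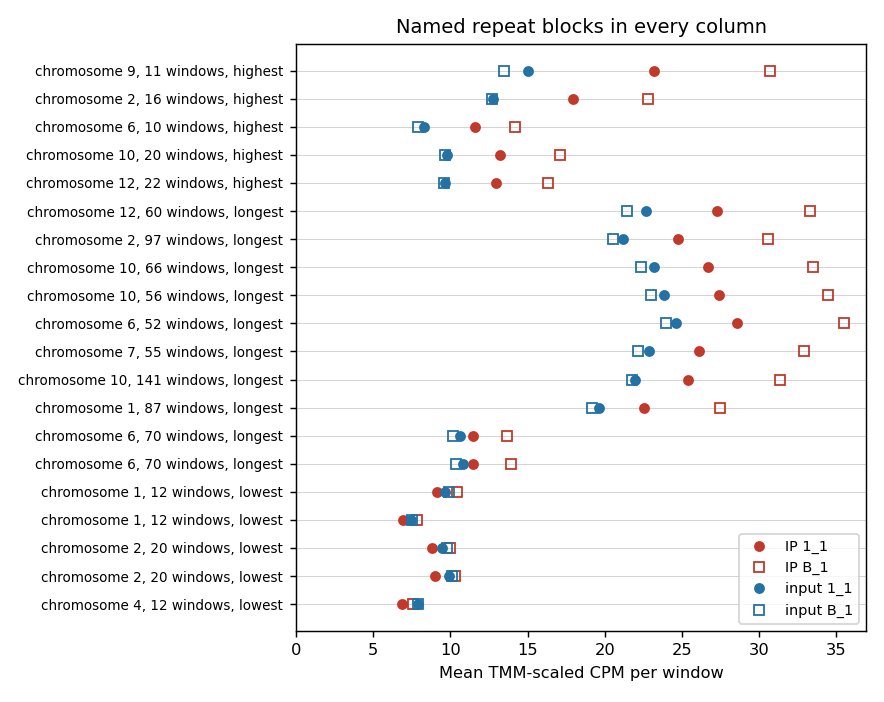
Mean TMM-scaled CPM per 300 bp window (x axis) in every column for the 5 highest, 10 longest and 5 lowest blocks (y axis), with IP in red and input in blue, circles for 1_1 and squares for B_1. IP lies right of input in all of the highest and longest blocks, IP B_1 lies right of IP 1_1 throughout, and in the lowest blocks the columns sit together or cross.

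The 10 longest blocks had log2 fold changes of 0.26 to 0.46. By edgeR's test 0 of them were called, and 0 at an unadjusted p under 0.05, while DESeq2 called 1. The longest, chr10:749101-791400 with 141 windows, held 624.5 and 590.5 IP counts per window and 653.1 and 625 input counts. Its log2 fold change was 0.37 ± 0.52 (SE; edgeR adjusted p = 0.710), and 14 of its windows were called higher, 7 of them in the gene CC1G_15285 of 22 windows. The next, chr2:3370801-3399900 with 97 windows, stood at 0.41 ± 0.42 (SE; adjusted p = 0.599) with 13 windows called. The block chr1:63601-89700 with 87 windows stood at 0.37 ± 0.38 (SE; adjusted p = 0.598) with 10 called. The blocks chr10:1177801-1197600, chr10:1152601-1169400, chr7:776701-793200 and chr6:1610401-1626000 lay between 0.39 and 0.40, with 1 to 7 windows called each. The block chr12:7201-25200 stood highest of the 10, at 0.46 ± 0.35 (SE; edgeR adjusted p = 0.436; DESeq2 adjusted p = 0.0418), with 7 of 60 windows called. Standard errors of these long blocks were 0.25 to 0.52 against 0.07 to 0.14 in the 5 highest. They come from a fit shared with bins of 10 windows and do not measure the spread between columns alone. The longest block held 25.4 and 31.3 CPM per window in IP against 22.0 and 21.7 in input. The highest block, chr9:761101-764400, held 23.2 and 30.7 against 15.03 and 13.5, a spread no narrower, with a standard error of 0.13. Why the standard errors differed was not tested. Without IP 1_1 all 10 were called higher, between 0.41 and 0.61.

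Single windows reached higher values than whole blocks. The highest was chr4:1644001-1644300, the first window of the block that ends at 1655700, with 199 and 189 IP counts against 57 and 72 input counts (log2 1.99 ± 0.12, SE; edgeR adjusted p = 8.42e-33). Its primary counts were 1898 and 2206 in IP against 41 and 44 in input (log2 4.57), a description only, since the rule chose for low primary input. The window chr13:597001-597300 followed with 286 and 313 against 112 and 104 (log2 1.88), and chr2:630901-631200, also the first window of its block, with 372 and 378 against 133 and 146 (log2 1.84). The r of these highest windows was -0.96, -1.39 and -0.52, so they were far less depleted than the median block, with a mean r of -4.78. At the other end stood chr8:660901-661200 with 132 and 115 IP counts against 232 and 229 input counts (log2 -0.49 ± 0.10, SE; edgeR adjusted p = 0.000407). Its neighbour chr8:660601-660900 was also called lower (log2 -0.39; adjusted p = 0.0217), while chr4:2184301-2184600 was not (log2 -0.43; adjusted p = 0.0717). These 3 lowest windows held at most 1 count in any column of the primary table, with r of -8.21, -7.93 and -7.19.

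A pair of equally long blocks on chromosome 6 was singled out after its values were seen. The blocks chr6:1713301-1734300 and chr6:1755001-1776000 have 70 windows each and are 20700 bp apart. Read in opposite directions, their input counts per window in the multi-mapped table had a Pearson r of 0.948 over the 70 windows, against 0.121 in the same direction. The log2 fold changes had a Pearson r of 0.949 in the opposite direction. Windows of a block are neighbours and may share reads with the other copy, so these are descriptions. Over the 809 pairs of blocks of like length the median of the better r was 0.398, and 12 reached 0.85. The closest pair after this one, chr7:114301-121800 with chr12:655801-663000 over 24 windows, had an r of 0.905 for input in the same direction and 0.943 for log2 fold change. The next 4 pairs, with an r for input of 0.889 to 0.895, had an r of only 0.265 to 0.594 for log2 fold change, so a like input profile did not always go with a like fold change profile.

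Both copies held 7 gene models in mirrored order with like lengths. CC1G_09461 lay at the outer end of the first copy and CC1G_15619 at the outer end of the second, and CC1G_09455 and CC1G_15613 lay next to the gap. The lengths were 2131 and 2063 bp for the genes CC1G_09455 and CC1G_15613, 3433 and 3433 bp for CC1G_09456 and CC1G_15614, and 2738 and 2738 bp for CC1G_09457 and CC1G_15615. The genes CC1G_09458 and CC1G_15616 were 1429 and 1259 bp long, CC1G_09459 and CC1G_15617 were 939 and 938 bp, CC1G_09460 and CC1G_15618 were 2214 and 2213 bp, and CC1G_09461 and CC1G_15619 were 2540 and 2434 bp. In the primary table the median window of these blocks had a mean input of 0.75 and 0.5 counts.

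By multi-mapped counts, fold changes within this pair differed from gene to gene in a like way in both copies. Reads that match both copies may be shared between them, so the likeness is a description and the copies are not independent. As whole blocks they stood at log2 0.27 ± 0.25 and 0.26 ± 0.25 (SE; edgeR adjusted p = 0.539 and 0.557), with 11.5 and 13.7 CPM per window in IP against 10.7 and 10.2 in input for the first copy, and 11.5 and 13.9 against 10.8 and 10.4 for the second. By multi-mapped counts 25 windows of the first copy and 21 of the second passed the test as higher, 19 of them at the same place, which is 76.0% and 90.5% of each. Genes CC1G_09461 and CC1G_15619 had 8 of 9 windows called each, with medians of 0.51 and 0.53. Genes CC1G_09455 and CC1G_15613, at the other end, had 7 and 5 of 8 called, with medians of 0.45 and 0.41. Between them, CC1G_09456, CC1G_09457 and CC1G_09458 had 1 called window each and medians of -0.07, 0.01 and -0.05, and their mirror genes CC1G_15614, CC1G_15615 and CC1G_15616 had 1, 0 and 2 called and medians of -0.14, -0.02 and 0.04.

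**Figure D4:**
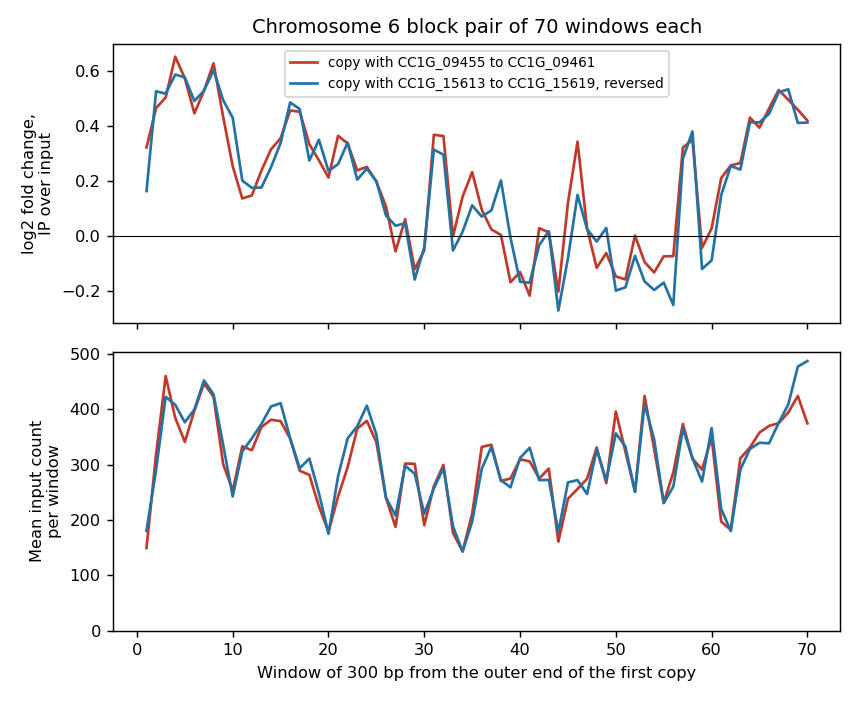
Log2 fold change of IP over input (upper panel, y axis) and mean input count (lower panel, y axis) per 300 bp window along the pair of 70-window blocks on chromosome 6 (x axis, windows), in the multi-mapped table, with the second copy reversed. The curves of both copies run together in both panels (Pearson r of 0.949 and 0.948), high at the ends and near or under 0 in the middle.

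The blocks held fewer genes than the rest of the chromosomes. Gene models covered 23.4% of block sequence against 68.5% of windows outside runs of low r. With at least 50% of their length inside a block there were 182 genes, all protein coding, in 80 blocks, while 57 blocks touched no gene at all. Of the 182 genes, 87 had at least 1 window called higher in the multi-mapped table, 10 had every window called, 2 had a lower window and 93 had none called. Over all 13497 genes on the chromosomes 13.0% had a window called higher, 1.97% every window and 5.31% a lower window, against 47.8%, 5.49% and 1.10% of the block genes. Their median window log2 fold changes ran from -0.24 to 1.19 with a median of 0.28. Blocks with such a gene had a median log2 fold change of 0.37 with 8 of 80 called, at a median of 459 input counts per window. Gene-free blocks had 0.43 with 4 of 57 called, at 669.6 input counts. The part of depth in this difference was not tested.

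In the primary table, 3507 of the 4450 block windows passed the minimum of 10 counts in all. Of these, 946 (27.0%) were called higher by edgeR's quasi-likelihood test, against 8.75% of all tested windows, and 276 (7.87%) were also at least 2-fold higher, against 1.80%. None was called lower against 0.640%, and 0 by DESeq2. At an unadjusted p under 0.05, 1499 (42.7%) were higher against 14.1% of all tested windows and 20 (0.570%) lower against 6.27%. Since these windows were chosen for a low primary input, and IP reads alone can carry a window past the minimum, the count is a description. With a total of 500 counts or more 853 of 1752 windows were called, with 100 to 500 counts 93 of 790, and with 10 to 100 counts 0 of 965 (14 higher at an unadjusted p under 0.05, and 0 by DESeq2). This total includes the IP counts, and shares over all windows of each class are not given. The counts by class are thus descriptions too. Calls in both tables were made for 319 windows, which is 33.7% of the primary calls and 42.9% of the multi-mapped calls. The overlap over all windows is not given. Opposite calls were 0, but they could hardly occur, with 0 windows lower in the primary table and 6 in the multi-mapped. The count was 589 without input 1_1 (17.4% against 4.87% of all windows), 442 without input B_1 (12.8% against 3.84%) and 570 with the inputs summed (16.3% against 4.60%). Scaling by library totals moved the median of all primary windows from -0.01 to -0.16, and the block windows stood 0.43 and 0.44 above it. The authors' deposited table called 391 of 4261 block windows (9.18%) higher in the primary table, against 3.26% of all windows.

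Windows next to the blocks lay in no run of 10 or more windows of low r, though 370 of 2945 had an r under -0.5 of their own. Within 10 windows on either side, 895 of 2945 windows (30.4%) passed as higher by multi-mapped and 1102 of 2934 (37.6%) by primary counts. Over all windows the shares were 7.00% and 8.75%. Both tables called 726 of the flanking windows, a description only, since the overlap over all windows is not given. Median log2 fold changes of the flanking windows were 0.25 and 0.34. Of the 2575 flanking windows with r of -0.5 or more, 28.4% and 36.7% were called, with medians of 0.22 and 0.32. Of all flanking windows 12 (0.407%) were lower by multi-mapped and 8 (0.273%) by primary counts, against 0.816% and 0.640% of all tested windows. The multi-mapped count was 1406 without IP 1_1 (47.7% against 12.7% of all windows), 399 without input 1_1 (13.5% against 3.44%) and 314 without input B_1 (10.7% against 2.80%). The primary count was 521 without input 1_1 (17.8% against 4.87%) and 390 without input B_1 (13.3% against 3.84%). With the inputs summed the counts were 546 (18.5% against 4.32%) and 477 (16.3% against 4.60%). With library totals they were 574 (19.5% against 4.90%) and 614 (20.9% against 5.49%).

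Calls fell off with distance from the block edge. In the window next to the edge 42.1% were called in the multi-mapped and 49.4% in the primary table, and 20 windows out 19.2% and 23.8%. Inside the blocks the multi-mapped share fell too, from 46.6% in the outermost window to 19.9% in the fourth and 9.71% in the eleventh, while the median input count rose from 377 to 668.5. The multi-mapped median log2 fold change stayed at 0.37 to 0.40 over these inner positions. Equal raw counts of IP and input come out as 0.41 after TMM scaling. Among windows of at most 300 multi-mapped input counts with r of -0.5 or more, 28.6% of 1691 flanking windows were called in the multi-mapped table and 29.7% in the primary table, against 4.40% and 4.87% of the rest. Per column, flanks over the rest had log2 values of 0.26 and 0.31 in IP against 0.10 and 0.08 in input in the multi-mapped table, and 0.33 and 0.40 against 0.08 and 0.06 in the primary table. The differences of 0.19 and 0.30 each had an exact two-sided permutation p = 0.333, the smallest possible.

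**Figure D5:**
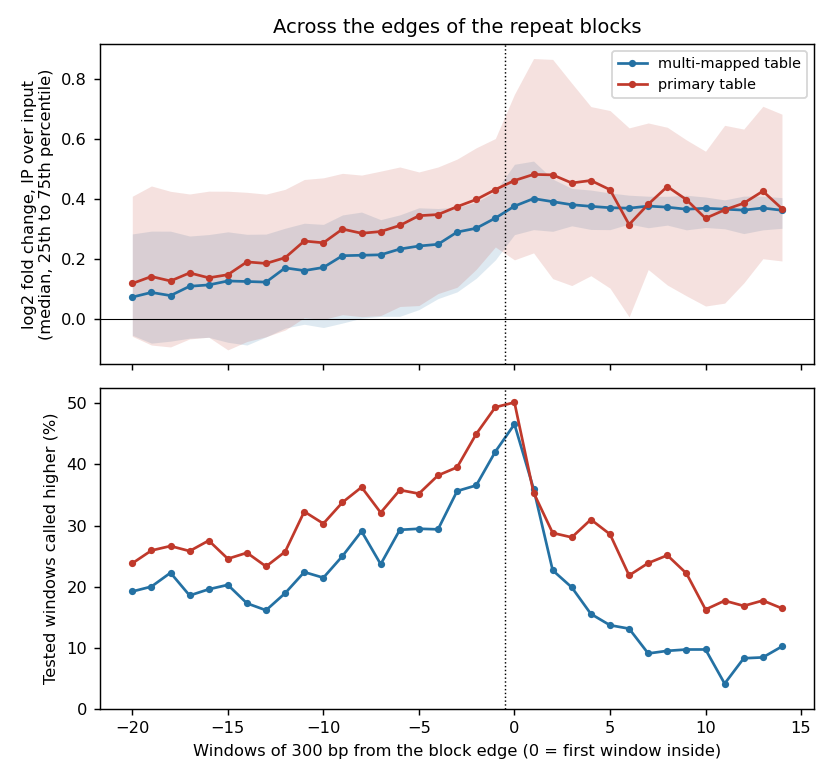
Median log2 fold change with its 25th to 75th percentile (upper panel, y axis) and percent of tested windows called higher in IP (lower panel, y axis) by distance from the block edge in 300 bp windows (x axis, 0 is the outermost window inside), for the multi-mapped table in blue and the primary table in red. Calls climb from 19.2% and 23.8% at 20 windows outside to 46.6% and 50.2% at the edge and then drop inside the blocks. There the multi-mapped median stays near 0.37, while equal raw counts of IP and input come out as 0.41. Primary values from 0 inward are descriptions, since the rule chose those windows for low primary input.

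The blocks were set against repeat runs of smaller depletion, the 80 runs of at least 10 windows with a mean r above -3, called diverged blocks here, with 1364 windows. The diverged blocks averaged 23.7 and 28.0 CPM per window in IP and 21.0 and 20.4 in input, 1.24-fold higher in IP. Of their windows 21.2% were called higher by multi-mapped counts, against 16.7% in the near-empty blocks, and their median log2 fold change was 0.39 against 0.37. Both kinds of block were set apart by r, which uses the input counts of both tables, so these values are descriptions, and primary calls were not compared. The log2 of the summed counts of the near-empty blocks over those of the diverged blocks was 1.69 and 1.70 in IP and 1.71 and 1.72 in input. Both IP values lay below both input values by a small step, a difference of -0.02 (exact two-sided permutation p = 0.333, the smallest possible).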

How the data were processed

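Genomic DNA of oidia was made into anti-CMS IP and input libraries, per the labels' protocols. Bowtie 0.12.7, Bismark 0.6.4 and an edgeR of no stated version were used upstream, per the submitters' processing notes. What each did, the genome build and the placing of reads with several matches are not given in the sources. Both deposited tables hold read counts in 300 bp windows. They also give log2 fold changes and adjusted p-values that the authors computed with edgeR, read only to count their calls, and 8 columns of per-sample RPKM values, which were not used. Columns were taken as IP or input from their headers. The tags 1_1 and B_1 match no label, and how 5 IP libraries became 2 columns is not stated.

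Windows with at least 10 counts over the columns were tested with edgeR 4.0.16 (R 4.3.3), using TMM scaling, the quasi-likelihood test (2 columns against 2, no block), and Benjamini-Hochberg adjustment over all windows of the table at a threshold of 0.05. Blocks were tested on summed counts beside bins of 10 windows covering the rest of the genome. Standard errors come from the F statistic. DESeq2 1.42.0 was an alternative, along with other scalings, filters, block limits, left-out columns and summed inputs. Single values were tested per column with exact permutation tests (scipy 1.17.1). Python 3.11.15, numpy 2.4.6, pandas 2.3.3 and matplotlib 3.10.9 were used. The quasi-likelihood test, and no other, was tried on simulated data.

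Named were the 10 longest, 5 highest and 5 lowest blocks by log2 fold change, the 3 highest and 3 lowest block windows of at least 50 counts, the 3 blocks on each side of the limit, and every gene with at least 50% of its length in a named block, of which the text gives those in the highest and lowest blocks and 1 from the longest. The blocks, lists and rules were chosen with earlier results of these data known. Gene models came from a RefSeq table of assembly CC3. Among shifts of up to 50 windows either way, gene cover matched input counts best with no shift on 13 of 13 chromosomes. That table holds no product names, so lists by product words and protein copies were not analysed here.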

Additional observations from a re-analysis of the deposited data

How the results depend on the processing

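Values are ordered as block windows (multi-mapped), block windows (primary), flanks (multi-mapped) and flanks (primary) unless named. Reported counts were 743, 946, 895 and 1102 higher and 6, 0, 12 and 8 lower, with 15 blocks higher and 0 lower. They moved by over 1.5 times as follows, and the cause was not tested. Library totals gave 30 blocks higher and 1 lower, 574 and 614 flanks higher, and 26, 8, 49 and 59 windows lower. Over all features of the block fit they called 11.9% higher and 37.0% lower, and over all primary windows 6.31% lower. DESeq2 gave 2469 of 4060 block windows, 25 blocks and 520 of 1302 multi-mapped flanks higher (the windows with an adjusted p, 39.9% of these flanks), and 0 block windows, 0 multi-mapped and 3 primary flanks lower. With inputs summed, 239, 570, 546 and 477 windows and 2 blocks were higher, and 3 block windows and 0 primary flanks lower. An adjusted p under 0.01 left 476, 541, 575 and 546 higher, and 1 block window and 5 and 1 flanks lower. Without the outer 2 windows of each side 477 block windows were higher, and among those of at most 400 input counts 448. Blocks higher were 32 of 207 at a mean r of -2, 6 of 109 at -4, 3 of 113 at 20 windows or more, and 91 with bins of 30 windows. Flanks of 5 windows held 530 and 632 higher and 3 and 3 lower, and of 20 windows 1390 and 1765 higher and 35 and 20 lower, as the number of windows changed too. Over all multi-mapped windows library totals called 4.90% higher and 5.33% lower, and DESeq2 0 lower. Shares over all features are not given for the stricter threshold, the block and input limits, the flank widths and the replicate block. Those counts are descriptions.

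Leaving out a column gave 139 to 4070, 442 to 1406, 314 to 1406 and 390 to 1525 windows and 1 to 154 blocks higher, and 0 to 17, 0 to 22, 4 to 10 and 1 to 109 windows and 0 to 2 blocks lower. The summed level stayed above 0 (0.17 to 0.42) and the difference from the diverged blocks below it (-0.03 to -0.01), with no p below 0.333. The block chr1:756001-759600 turned to 0.0039 with DESeq2 size factors, 0.0040 by DESeq2, 0.0011 with inputs summed and 0.02 without input B_1. Leaving out a column moved it from -0.10 (IP B_1 out) to 0.11 (IP 1_1 out), and likewise the low blocks chr1:706801-710400 from -0.11 to 0.078, chr2:2623801-2629800 from -0.16 to 0.058 and chr2:3142201-3148200 from -0.13 to 0.063. Of the named blocks and windows 281 values kept direction and side of the threshold, 24 newly passed it and 14 no longer did.

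A replicate block on the column tag left 8 blocks higher, and 5 block windows and 35 flanks lower in the primary table. It changed no call of a named block or window. Same-tagged columns had correlations of deviations of 0.0627 in the multi-mapped and 0.140 in the primary table over windows, and the labels do not tie the tags to cultures.

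Limits are the 2 columns per group, under which a permutation test cannot pass, the unknown placing of reads that match several copies, and counts that end near 1071 in the deepest windows, where IP and input counts converge.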
